A study of Mus musculus with 4 samples.

Results

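The genes described here encode the motors that walk along microtubules, namely the kinesins with their light chains, the chains of cytoplasmic dynein and the chains of axonemal dynein. Members were taken by symbol from the deposited count table, and 66 of its 24015 genes had a matching symbol and at least 10 counts summed over the libraries. They comprise 39 kinesin genes, 14 cytoplasmic dynein genes and 13 axonemal dynein genes. The 4 libraries came from cerebella dissected from adult C57BL/6N mice at 140 to 150 days of age, 1 male and 1 female heterozygous for an Arid1b knockout (HT) and 1 male and 1 female wild type littermate (WT), with no treatment named. The knockout allele has no further description in the labels, both HT animals keep 1 intact copy, and the design names the expression changes that follow as its subject. Each library differs from the others in genotype or sex, so they come from different animals, and the protocols name 4 cerebella for the 4 libraries. With 1 library of each sex per genotype, the spread between animals of the same sex and genotype cannot be seen. The p-values measure only the spread left between these libraries after sex and genotype are fitted. That is the departure of the genotype difference between the sexes, and the fit pools it for the most part over genes.

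Kinesins and dyneins turn the energy of ATP into steps along microtubules. Most kinesins move towards the plus end of the microtubule, which in an axon points to the terminal, while dyneins move towards the minus end, so that the former carry vesicles and organelles outward and the latter bring endosomes and worn organelles back to the cell body. Axonemal dyneins do not carry cargo: they are fixed in rows to the microtubules of motile cilia and make the cilium beat, which in the brain is the work of ependymal cells. A further group of kinesins builds and moves the mitotic spindle and is used by dividing cells.

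The total count per library was between 15950899 and 20616219, and a floor of 3 counts corresponds to 0.146 to 0.188 CPM (counts scaled to the library total), which covers counting error only. Arid1b itself stood at 52.9 CPM in the HT male and 55.8 in the HT female, against 69.9 in the WT male and 71.0 in the WT female. Its log2 fold change of -0.37 ± 0.11 (SE) missed the adjusted threshold of 0.05 (adjusted p = 0.243 in the quasi-likelihood test of edgeR). Markers of Purkinje cells, granule cells and myelin were present at high level in every library, with summed levels of 7373 to 9656, 5692 to 8482 and 13882 to 16111 CPM. Choroid plexus markers summed to 2750 CPM in the HT male and 1495 to 1588 CPM in the others, and Ttr among them was at 1857 CPM in the HT male and between 936 and 988 CPM in the other libraries. The excess was not confined to the HT male in every marker. Of 18 choroid plexus markers, 8 had both HT libraries above both WT libraries and 0 had both below. At an unadjusted p under 0.05 (edgeR) there were 7 on the higher side and 0 on the lower. Their median log2 ratio of HT to WT was 0.82 between the males and 0.18 between the females.

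Motor genes together took 1.05% of all counts in the HT male, 1.06% in the HT female, 1.05% in the WT male and 0.967% in the WT female. Kinesins made up the larger part, with 0.704% to 0.796% of counts, followed by cytoplasmic dynein with 0.256% to 0.271%. Axonemal dynein accounted for 0.00632% and 0.00658% of counts in HT and 0.00714% and 0.00769% in WT. The WT female had the lowest kinesin share of the libraries.

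Levels were compared between genes as CPM per kilobase of the longest annotated transcript. The median member stood at 36.8 CPM per kb in cytoplasmic dynein, 2.08 in the kinesins and 0.205 in axonemal dynein, where the median of all tested genes with a length was 7.61. Dynll2 and Dynlrb1, light chains of dynein, led the cytoplasmic class with 354 ± 18.6 and 251 ± 21.4 CPM per kb (mean ± SD over the 4 libraries). Dync1i1, an intermediate chain that ties the motor to dynactin, and Dync1li2, a light intermediate chain, followed with 71.6 ± 6.47 and 68.6 ± 3.58, which did not differ beyond their spread. Among the kinesins, the light chain Klc1 was at 322 ± 11.9 and the neuronal kinesin-1 heavy chain Kif5a at 290 ± 34.5, which overlapped. Kif1a, the kinesin-3 motor of synaptic vesicle precursors, and Kif5c, another neuronal kinesin-1 heavy chain, came next with 147 ± 11.7 and 133 ± 8.17. The axonemal class was led by the intermediate chains Dnaic2 and Dnaic1, at 1.98 ± 0.247 and 1.96 ± 0.311, and by the heavy chains Dnah7b and Dnah11, at 1.24 ± 0.114 and 1.13 ± 0.467 CPM per kb. The leading kinesins and cytoplasmic dynein chains were thus far above the axonemal chains, and bulk tissue does not show which cells they came from.

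**Figure D1:**
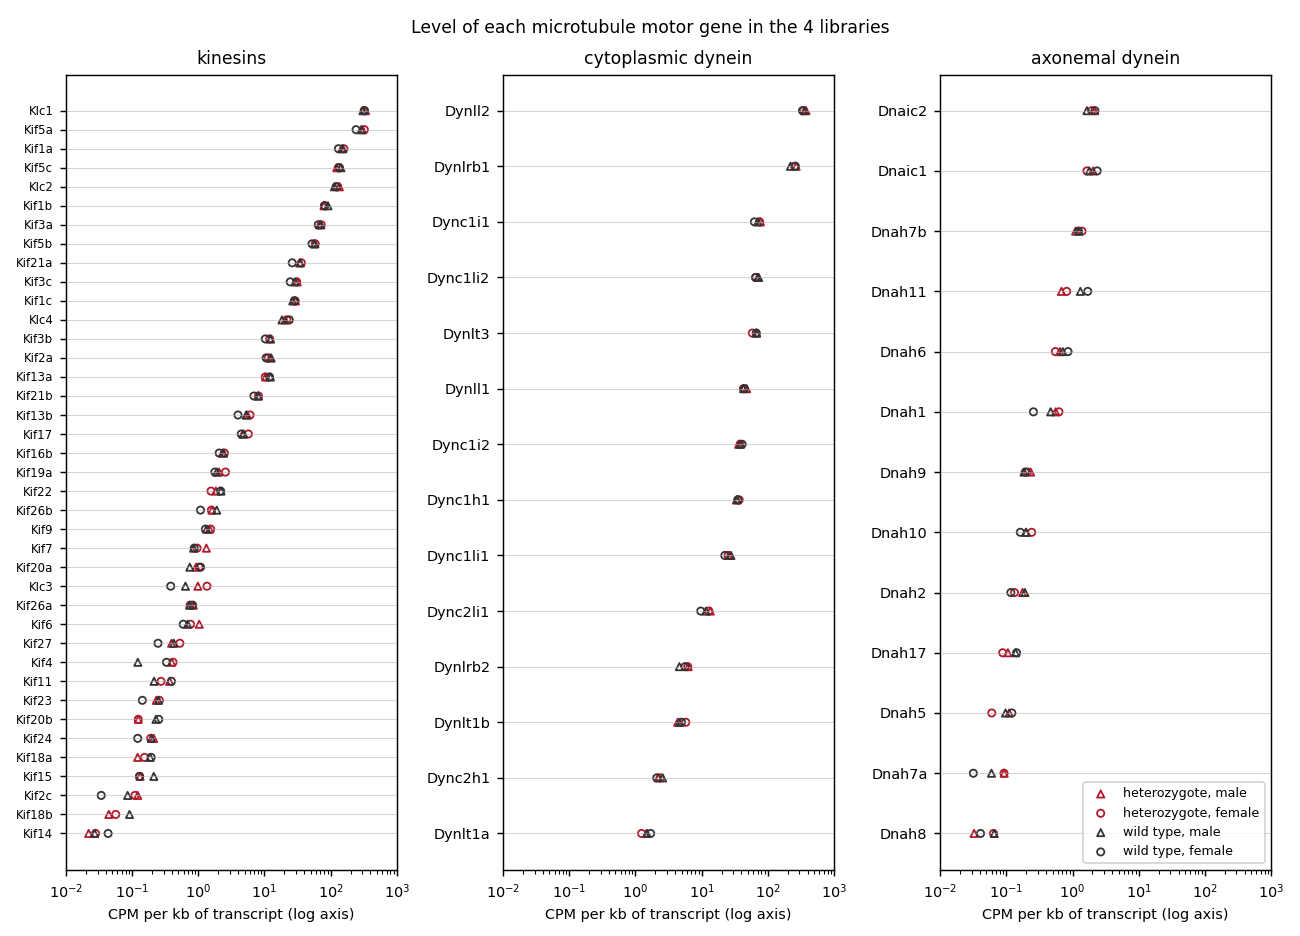
Level of each of the 66 motor genes in CPM per kb of transcript (log axis), 1 panel per class, with 1 symbol per library (triangles male, circles female, red heterozygote, dark wild type; a library with no count has no symbol). Member means run from 0.0302 to 322 CPM per kb in kinesins, from 1.48 to 354 in cytoplasmic dynein and from 0.0507 to 1.98 in axonemal dynein.

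Some members could not be measured well. Matching symbols under the minimum of 10 counts were Kif12, with 1 count in all, and Kif2b, Dynlt1c and Dynlt1f, with 0. Just above it, the mitotic kinesins Kif18b, Kif2c and Kif14 had 11, 18 and 20 counts in all and did not pass the low-count filter, so that 63 members were tested. Dynlt1a and Dynlt1b are near-identical copies of Dynlt1c and Dynlt1f: of all 100-base windows of the longest transcript, 59.0% in Dynlt1a and 82.0% in Dynlt1b occur unchanged in a transcript of another gene. The same holds for 19.96% of the windows in Dnah7a and 23.5% in Dnah7b, so the division of reads among these copies is uncertain. Dnah7c, which shares sequence with both, has no row under that symbol in the count table. Nor have Dnah3, Dnah12, Dnah14 and Kif28, which the GENCODE annotation also lists.

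Between the genotypes none of the 63 tested members passed the adjusted threshold of 0.05 in edgeR's quasi-likelihood test, where 0.0198% of all tested genes did, and DESeq2 and limma-voom also called 0. At an unadjusted p under 0.05 there were 4 members, Kif5a, Klc3 and Dnah1 on the higher side and Dnah11 on the lower side in HT, a share below the 11.7% of all tested genes at that level. In 27 members both HT libraries lay above, or both below, both WT libraries, and 44.7% of all tested genes did so. Of these, 17 members lay above, where 22.1% of tested genes did, and 10 below, where 22.6% did. Of the 63 members, 45 had a log2 fold change above 0, whereas 51.1% of all tested genes did.

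Each class is given here by its counts and median. Among kinesins 29 of 36 tested members had a log2 fold change above 0, with a median of 0.11, and 11 lay above both WT libraries while 5 lay below. In cytoplasmic dynein 9 of 14 were above 0, with a median of 0.05 and a range from -0.23 to 0.31. Axonemal dynein held 7 of 13 members above 0, with a median of 0.01 and a range from -1.001 to 1.05. The median over all tested genes was 0.00630. The kinesin median was -0.0015 between the males and 0.19 between the females, and it was 0.07 without the WT female and 0.22 without the WT male, so that its height follows which wild type library is used. These medians carry no test, and no class was shown to differ from another.

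**Figure D2:**
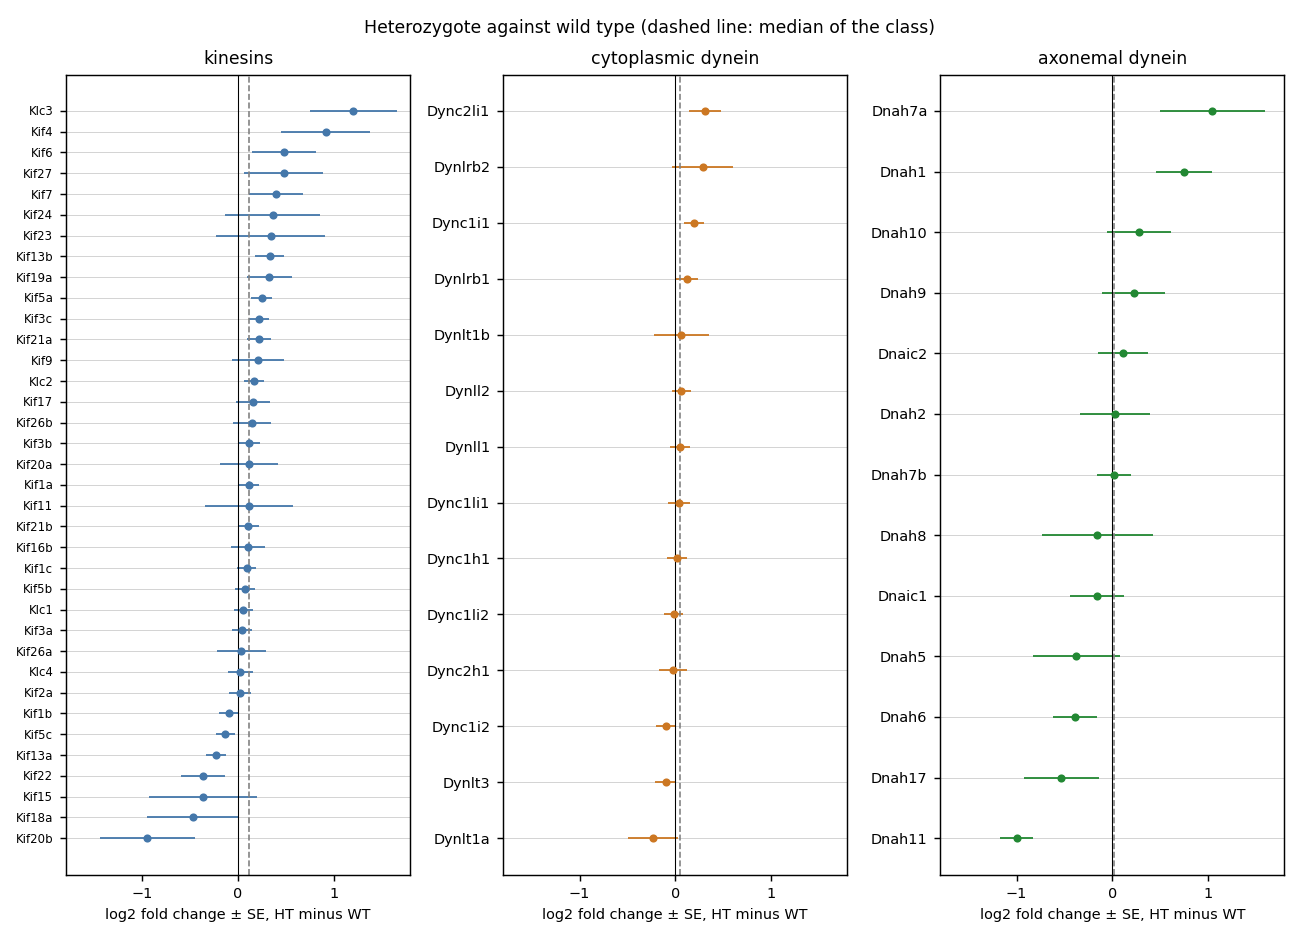
Log2 fold change of each tested member, heterozygote minus wild type, with its standard error, 1 panel per class; the dashed line is the class median (0.11, 0.05 and 0.01). Most kinesins and cytoplasmic dynein chains lie within a narrow band around 0, and Dnah11 stands at -1.001.

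Precision followed depth. The 24 members with at least 1000 counts per library on average had standard errors of 0.10 to 0.13 and log2 fold changes between -0.23 and 0.25. For the 15 members with 100 to under 1000 counts the median standard error was 0.18, and for the 24 members under 100 counts it was 0.40.

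Kinesin-1 is a tetramer of paired heavy chains (Kif5a, Kif5b or Kif5c), which hold the motor, and paired light chains (Klc1 to Klc4), which bind cargo. Kif5a stood at 1915 CPM in the HT male, 2033 in the HT female, 1822 in the WT male and 1525 in the WT female. Both HT libraries were above both WT libraries, though the males lay close together. The log2 fold change was 0.25 ± 0.11 (SE; adjusted p = 0.426, edgeR), and it was 0.11 without the WT female and 0.37 without the WT male. Kif5c went the other way, with 846 and 894 CPM in the HT male and HT female and 978 and 931 in the WT male and WT female, a log2 fold change of -0.13 ± 0.10 (SE). Its groups did not overlap, but the difference did not pass the test (adjusted p = 0.675, edgeR). Kif5b, the heavy chain used by most cell types, was at 345, 353, 349 and 315 CPM in the same order, with groups that overlapped and a 95% interval of the log2 fold change from -0.15 to 0.30.

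Expressed per kilobase, Kif5a made up 62.8% and 63.1% of kinesin-1 heavy chain message in the HT male and HT female, against 59.1% and 56.3% in WT. Kif5c made up 25.5% in both HT libraries, against 29.1% in the male and 31.6% in the WT female, and Kif5b 11.4% to 12.1% throughout. The balance between the neuronal heavy chains was therefore separate between the genotypes in these libraries, while the share of Kif5b hardly moved. Markers of granule cells, which are small neurons, were lower in HT for 20 of 20 tested genes (median -0.44), and markers of large projection neurons, among them Nefl at 0.53 ± 0.10 (SE), were higher for 11 of 12 (median 0.44). The 1 lower projection neuron marker had both HT libraries below both WT libraries. It had an unadjusted p under 0.05 (edgeR), as had 7 of the higher ones, where 6.46% and 5.22% of all tested genes lay on those sides. Markers of Purkinje cells, which are also large neurons, were lower for 18 of 20 (median -0.29), while those of oligodendrocytes were higher for 16 of 18 (median 0.14) and those of choroid plexus for 16 of 18 (median 0.55). None of the granule or projection neuron markers passed the adjusted threshold (lowest adjusted p of 0.130 and 0.0710, edgeR). The part of these cell types in the Kif5a and Kif5c values was not tested. In bulk tissue, fewer cells of a type and less RNA per cell cannot be told apart.

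The light chains Klc1 and Klc2 were abundant and close to each other between genotypes. Klc1 was at 843, 802, 771 and 814 CPM in the HT male, HT female, WT male and WT female, with a log2 fold change of 0.06 ± 0.10 (SE). Klc2 was at 429, 405, 362 and 384 CPM in that order, with both HT libraries above both WT libraries and a log2 fold change of 0.16 ± 0.10 (SE; adjusted p = 0.587, edgeR). Klc4 was at 47.8, 50.8, 42.7 and 55.1 CPM, and its groups overlapped. Klc3, a minor light chain, had 38 and 41 counts in the HT male and HT female and 20 and 15 in WT, or 1.87 and 2.57 against 1.22 and 0.728 CPM. Its log2 fold change of 1.21 ± 0.46 (SE; unadjusted p = 0.0222, adjusted p = 0.342, edgeR) was the highest of all members and rests on few reads, and it was 0.85 without the WT female and 1.59 without the WT male. Klc3 (GRCm38 chr7:19394437-19404104, minus strand) shares 28.1% of its exon bases with Ercc2 on the other strand, which was near equal between genotypes at 0.03 ± 0.14 (SE).

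The kinesin-2 motors combine Kif3a with Kif3b or Kif3c, and the first of these pairs also builds cilia. Kif3a was at 214, 228, 225 and 206 CPM in the HT male, HT female, WT male and WT female, with a log2 fold change of 0.04 ± 0.11 (SE). Kif3b was at 69.7, 67.4, 69.0 and 58.0 CPM in that order, so that only the WT female stood lower. Kif3c, the partner enriched in neurons, was at 213 and 208 CPM in HT and 197 and 166 in WT, a log2 fold change of 0.22 ± 0.11 (SE; adjusted p = 0.46, edgeR). Both HT libraries were above both WT libraries, and 43.3% of the exon bases of Kif3c are shared with 1110002L01Rik and Gm48512 on the other strand, which unstranded counting could not separate. Kif17, a motor of dendrites and cilia, was at 16.2 and 19.7 CPM in HT and 16.8 and 15.4 in WT, which overlapped.

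In the kinesin-3 family, Kif1a was at 1211, 1299, 1254 and 1076 CPM in the HT male, HT female, WT male and WT female. Its log2 fold change of 0.11 ± 0.11 (SE) came from the females, and it was -0.000457 without the WT female and 0.22 without the WT male. Kif1b, which carries mitochondria and synaptic vesicle precursors, was at 811, 825, 930 and 825 CPM in that order, with the WT male apart from the rest. Kif13a and Kif13b, motors of endosomes and other vesicles, differed from each other in direction. Kif13a was at 71.5 and 70.5 CPM in HT and 84.6 and 81.8 in WT, a log2 fold change of -0.23 ± 0.11 (SE; adjusted p = 0.433, edgeR). Kif13b was at 48.7 and 53.7 CPM against 46.9 and 35.3, a log2 fold change of 0.33 ± 0.15 (SE; adjusted p = 0.428, edgeR), with the WT female lowest. The groups of both genes did not overlap. Kif1c and Kif16b had log2 fold changes of 0.09 and 0.10.

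Members of the kinesin-4 family were all above 0, with log2 fold changes from 0.11 to 0.92. Kif21a, a large motor that halts microtubule growth, was at 220, 233 and 225 CPM in the HT male, HT female and WT male, and at 169 in the WT female, which alone set the difference of 0.22 ± 0.13 (SE). Kif4, a chromosome-bound mitotic motor, had 40 and 33 counts in the HT male and HT female against 10 and 34 in the WT male and WT female. Its fitted value of 0.92 ± 0.46 (SE; adjusted p = 0.484, edgeR) was 1.72 without the WT female and 0.29 without the WT male, so that it rests on the WT male. Kif7, a regulator of Hedgehog signalling in cilia, had 0.40 ± 0.28 (SE), and Kif27 had 0.48 ± 0.41 (SE).

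Motors of the mitotic spindle were at low level, as were markers of dividing cells. Of the 6 members Kif11, Kif15, Kif20a, Kif20b, Kif22 and Kif23, 3 had a log2 fold change above 0 and 3 below, with a summed level of 12.9 to 16.2 CPM per library. Kif4, at 0.92 ± 0.46 (SE), and Kif18a, at -0.47 ± 0.48 (SE), were placed in other families and are not among these 6. Kif20b, a motor of cytokinesis, had 14 and 11 counts in the HT male and HT female and 21 and 29 in WT, a log2 fold change of -0.95 ± 0.49 (SE; adjusted p = 0.5, edgeR). Both HT libraries lay below both WT libraries. The 16 markers of dividing cells summed to 19.2 to 22.8 CPM per library, none had 0 counts in all libraries, and the lower of these sums was in the HT male. Of the 11 tested among them, 3 had a log2 fold change above 0 and 8 below, with a median of -0.12. The other tested kinesins had log2 fold changes of 0.33 (Kif19a), 0.48 (Kif6), 0.21 (Kif9), 0.36 (Kif24), 0.03 (Kif26a), 0.15 (Kif26b), 0.11 (Kif21b) and -0.47 (Kif18a). Kif20a shares 29.3% of its exon bases with Cdc23 on the other strand. Kif2a, a kinesin-13 motor that takes microtubules apart and is used by neurons, was at 63.8, 60.3, 66.9 and 56.3 CPM in the HT male, HT female, WT male and WT female, and its groups overlapped.

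Cytoplasmic dynein has a single heavy chain for transport, Dync1h1. It was at 483, 530, 495 and 504 CPM in the HT male, HT female, WT male and WT female, with a 95% interval of the log2 fold change from -0.20 to 0.24. The intermediate chains went apart. Dync1i1, the neuronal form, was at 211 and 205 CPM in HT and 192 and 171 in WT, a log2 fold change of 0.20 ± 0.10 (SE; adjusted p = 0.5, edgeR), which was 0.11 without the WT female. Dync1i2, the form found in all tissues, was at 164 and 172 CPM against 175 and 185, a log2 fold change of -0.09 ± 0.10 (SE). In both genes the groups did not overlap. The light intermediate chains Dync1li1 and Dync1li2 had log2 fold changes of 0.04 ± 0.12 and -0.02 ± 0.10 (SE), with overlapping groups.

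The light chains, which dynein shares with other complexes, differed little between the genotypes. Dynll2 was at 936, 858, 889 and 828 CPM in the HT male, HT female, WT male and WT female, with 0.06 ± 0.10 (SE) on the log2 scale. Dynlrb1 was at 211, 201, 174 and 206 CPM in that order, with 0.13 ± 0.11 (SE), where the WT male alone was lower. Dynlrb2, a form used in ciliated cells, was at 3.30 and 3.26 CPM in HT and 2.43 and 2.96 in WT, which did not overlap. Dynlt1a was at 5.23 and 4.39 CPM against 5.29 and 6.01. Dynll1, Dynlt3, Dynlt1a and Dynlt1b had log2 fold changes of 0.05, -0.10, -0.23 and 0.06. Dynein-2, which returns cargo inside cilia, was split: Dync2li1 was at 18.3 and 17.4 CPM in HT and 15.7 and 13.1 in WT (0.31 ± 0.17, SE; adjusted p = 0.51, edgeR), while its heavy chain Dync2h1 had -0.03 ± 0.15 (SE). Dync2li1 was at 0.18 without the WT female. A p above the threshold does not show that these levels are equal.

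Axonemal dynein held the member that differed most in p. Dnah11, a heavy chain of the outer arm known for its role in the cilia that set left and right in the embryo, had 194 counts in the HT male, 183 in the HT female, 304 in the WT male and 492 in the WT female, or 9.56, 11.5, 18.5 and 23.9 CPM. Both HT libraries lay below both WT libraries, and the difference was of like size in the males (-0.94) and in the females (-1.05). The mean was 10.5 ± 1.35 CPM in HT and 21.2 ± 3.81 in WT (SD, n = 2 each). On the log2 scale Dnah11 differed by -1.001 ± 0.17 (SE), with a 95% interval from -1.38 to -0.63, which is a level of 0.50-fold. It ranked as number 10 of 15117 genes by p (unadjusted p = 9e-05) and did not pass the adjusted threshold (adjusted p = 0.13, edgeR). The adjusted p of Dnah11 was 0.106 with DESeq2, 0.0942 with limma-voom, 0.085 with DESeq2's size factors and 0.0488 with library totals in place of TMM factors. It was 0.174 with a stricter filter and 0.307 with no sex term. Without any low-count filter it was 4.78e-05, in a fit that called 553 genes in all where the main one called 3. Leaving out each library in turn gave log2 fold changes of -0.82 to -1.18. The adjusted p was then 1.00 without the HT male and 0.779 without the HT female, and it was 7.75e-10 without the WT male and 0.000956 without the WT female, where 17.5% and 4.30% of all genes were called.

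Summed over the 12 other members, the level was 53.7 and 54.4 CPM in the HT male and HT female and 52.9 and 53.1 in WT. Dnah11 thus accounts for the lower total of the axonemal dynein members, which do not include chains without a row in the count table. Dnah7b, an inner arm heavy chain of similar level, was at 13.7, 17.1, 15.3 and 15.1 CPM in the HT male, HT female, WT male and WT female. Dnah9, the outer arm heavy chain closest in kind to Dnah11, was at 3.20 and 2.88 CPM in HT and 2.55 and 2.67 in WT. The count ratio of Dnah11 to Dnah9 was 2.98 and 3.98 in HT and 7.24 and 8.95 in WT. Its ratio to Dnah7b was 0.698 and 0.670 against 1.21 and 1.58. Both ratios were separate between the genotypes by the same difference in Dnah11 and are no separate support for it.

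**Figure D3:**
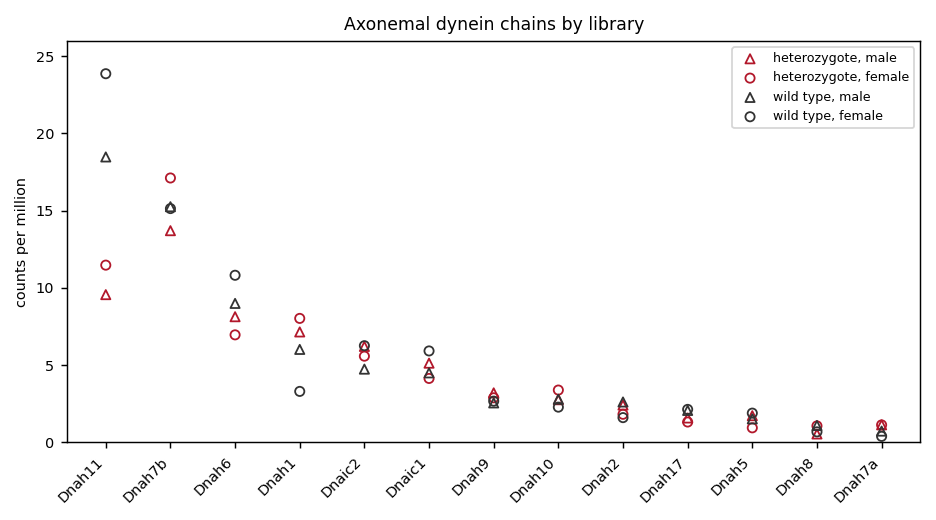
CPM of the 13 axonemal dynein chains in each library (triangles male, circles female, red heterozygote, dark wild type). Dnah11 has both HT libraries (9.56 and 11.5) below both WT libraries (18.5 and 23.9), as have Dnah6 and Dnah17 with smaller gaps; Dnah7b overlaps.

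Among the remaining chains, Dnah1, an inner arm heavy chain, was at 7.15 and 8.02 CPM in the HT male and HT female and 6.02 and 3.30 in WT, a log2 fold change of 0.75 ± 0.29 (SE; unadjusted p = 0.0262, adjusted p = 0.354, edgeR). Its groups did not overlap, but the difference was 0.24 in males and 1.26 in females, and it was 0.33 without the WT female and 1.20 without the WT male. Dnah7a had 23 and 18 counts against 12 and 8, a log2 fold change of 1.05 ± 0.55 (SE), and shares sequence with Dnah7b. Dnah6 was at 8.13 and 6.96 CPM against 8.99 and 10.8 (-0.39 ± 0.23, SE), and Dnah17 was at 1.58 and 1.32 against 2.07 and 2.13 (-0.54 ± 0.39, SE). Neither passed the test, with an adjusted p of 0.552 and 0.655 (edgeR). The intermediate chains Dnaic1 and Dnaic2 had -0.16 ± 0.28 and 0.11 ± 0.26 (SE), with overlapping groups, and Dnah2, Dnah5, Dnah8 and Dnah10 also overlapped.

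Several measurements stand beside the Dnah11 value. Dnah11 lies at GRCm38 chr12:117877982-118199043 on the minus strand and shares 4.44% of its exon bases with Cdca7l, a gene on the opposite strand. Cdca7l had 10 and 18 counts in the HT male and HT female and 18 and 55 in WT, a log2 fold change of -1.19 ± 0.46 (SE; adjusted p = 0.346, edgeR). How strand was set in counting was not stated in the labels used. Markers of motile ciliated cells included the master regulator Foxj1, at 25.5 to 28.0 CPM in HT and 21.5 to 23.4 in WT. Those of smallest p were Fam183b, Rfx3 and Spag6, with log2 fold changes of 0.96 ± 0.38, -0.35 ± 0.17 and 0.65 ± 0.34 (SE). Their adjusted p was 0.368, 0.459 and 0.497 (edgeR). Rfx3 stood at 15.6 and 17.2 CPM in the HT male and HT female and 22.4 and 19.4 in WT. Of 31 tested markers, 22 had a log2 fold change above 0 and 9 below, with a median of 0.11. That median was 0.40 between the males and -0.04 between the females, and their summed level was 135, 120, 115 and 127 CPM in the HT male, HT female, WT male and WT female. Granule cell markers summed to 5692, 6276, 7334 and 8482 CPM in that order. Per 1000 CPM of granule cell markers, Dnah11 was at 1.68 and 1.83 CPM in HT and 2.52 and 2.81 in WT, a difference of -0.60 on the log2 scale where Dnah11 itself differs by -1.001 and the marker sum by -0.40. Purkinje cell markers summed to 7875, 7373, 8201 and 9656 CPM in the same library order, a difference of -0.22. The ratio of Dnah11 to them differed by -0.78. For choroid plexus markers the sum differed by 0.48 and the ratio by -1.48. These ratios restate the Dnah11 value and the marker sums. A part of these cell types or of Cdca7l reads in the Dnah11 value was not tested.

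The promoter of Dnah11 is shown because this gene had the smallest p of all members, with lower case throughout and no motif marked. RefSeq (GRCm38.p6) places the window around the start at chr12:118198994-118199293 on the minus strand, with a GC content of 49.0%.
Dnah11: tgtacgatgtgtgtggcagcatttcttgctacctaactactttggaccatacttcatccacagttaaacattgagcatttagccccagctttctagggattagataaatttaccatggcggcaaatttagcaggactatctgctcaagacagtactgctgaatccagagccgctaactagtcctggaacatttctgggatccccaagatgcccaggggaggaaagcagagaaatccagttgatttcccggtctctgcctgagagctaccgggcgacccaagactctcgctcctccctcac
RFX factors, which switch on cilia genes, bind the X-box. Of the 66 members, 54 had such a RefSeq promoter window, and 3 spellings of the X-box were searched on both strands. Its 14-letter palindromic form (GTT, any base, CC, any 2 bases, GG, any base, AAC) was in 0 member promoters and in 0.529% of all 27025 genes. A 13-letter form (GTT, any base, CC, any 2 bases, G, any 2 bases, AC) has shorter spacing and fewer fixed bases, and matches of the 14-letter form are not a subset of its matches. It was in 5 of the 54 members (9.26%), where 1.79% of all genes had it. The short form GTTGCC, which overlaps both, was in 20 of the 54 (37.0%), where 14.1% of all genes had it. The 13-letter form was chosen after several spellings had been tried, so its share is a description. It was in 3 of 13 axonemal chains, 1 of 9 cytoplasmic dynein chains and 1 of 32 kinesins with a promoter. The windows around these matches are shown because each gene belongs to a ciliary motor or is used in cilia, with the match in capitals, read on the gene's strand.
Dnah9: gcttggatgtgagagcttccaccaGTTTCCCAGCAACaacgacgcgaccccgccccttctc
Dnaic1: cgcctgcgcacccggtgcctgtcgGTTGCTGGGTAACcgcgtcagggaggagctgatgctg
Dnaic2: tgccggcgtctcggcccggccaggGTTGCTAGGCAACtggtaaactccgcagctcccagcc
Dynlrb2: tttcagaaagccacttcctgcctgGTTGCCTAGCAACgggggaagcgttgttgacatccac
Kif17: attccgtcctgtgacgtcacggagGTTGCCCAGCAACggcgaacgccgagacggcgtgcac
In GRCm38.p6 they lie at chr11:66168597-66168657 (minus strand), chr4:41569751-41569811 (plus), chr11:114727362-114727422 (plus), chr8:116504940-116505000 (plus) and chr4:138262154-138262214 (plus), in the order printed. In Dnaic1 and Dnaic2 the motif reads on the opposite strand. The log2 fold changes of these genes were 0.22 for Dnah9, -0.16 for Dnaic1, 0.11 for Dnaic2, 0.29 for Dynlrb2 and 0.16 for Kif17, all within 1 standard error of 0, and the Dnah11 window held neither long form.

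Paralogous chains were also compared within each library by their count ratio, which does not depend on library size. The 14 pairs were fixed with earlier results of these data known, and the ratios restate the members' own values. Kif5a to Kif5c was 2.26 and 2.27 in the HT male and HT female and 1.86 and 1.64 in WT, a mean difference of 0.38 on the log2 scale. Kif13b to Kif13a was 0.681 and 0.762 against 0.554 and 0.431, a difference of 0.56. Dync1i1 to Dync1i2 was 1.28 and 1.19 against 1.10 and 0.922, a difference of 0.29, and Kif1a to Kif1b was 1.49 and 1.57 against 1.35 and 1.30, a difference of 0.21. In each of these pairs both HT libraries lay above both WT libraries. Klc2 to Klc1 (difference 0.11), Kif3c to Kif3a (0.18) and Kif5a to Kif5b (0.17) were also separate, as was Dnaic1 to Dnaic2 in the other direction (-0.28). Kif3b to Kif3a, Kif21a to Kif21b, Dync1li1 to Dync1li2 and Dynll1 to Dynll2 overlapped. Of the 14 pairs, 7 had both HT libraries above both WT libraries and 3 had them below. No share over other gene pairs was computed, and among single tested genes 44.7% had groups that do not overlap. With 2 libraries a group these ratios carry no test.

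**Figure D4:**
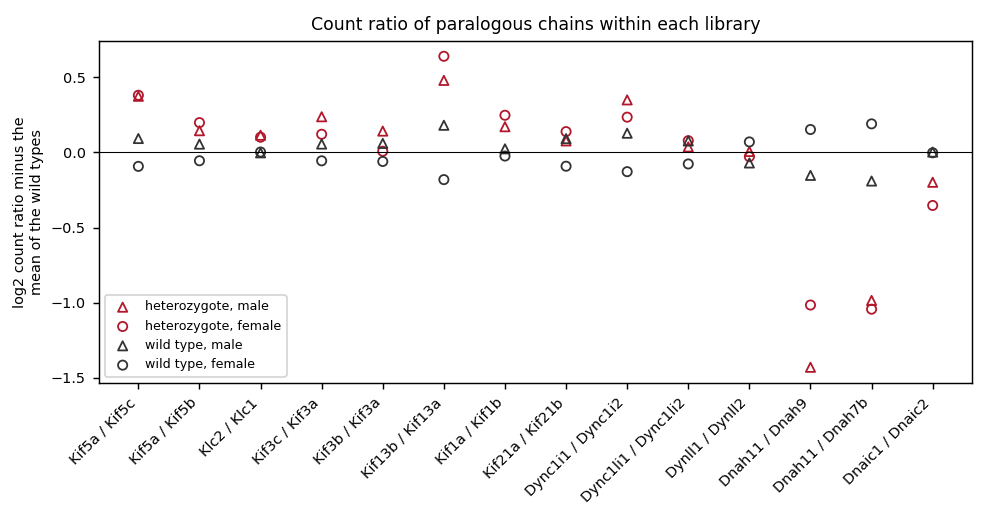
Log2 count ratio of 14 pairs of related chains in each library, minus the mean of both WT libraries (triangles male, circles female, red heterozygote, dark wild type). Kif5a / Kif5c, Kif13b / Kif13a and Dync1i1 / Dync1i2 have both HT libraries above both WT libraries, and pairs with Dnah11 have them below.

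The genes that work with these motors showed no called change. Of 26 tested dynactin subunits and dynein regulators, 16 had a log2 fold change above 0 with a median of 0.05. Dctn1, the dynactin subunit p150 that binds dynein and microtubules, had 0.20 ± 0.10 (SE), and the adaptor Hook3 had -0.30 ± 0.12 (SE), which was the 1 regulator with an unadjusted p under 0.05 (0.0239; adjusted p = 0.348, edgeR). Of 17 kinesin cargo adaptors 11 were above 0 (median 0.05), with Appbp2 at 0.41 ± 0.14 (SE; adjusted p = 0.293, edgeR). The 17 tested light chains and assembly factors of axonemal dynein had a median of 0.07, with Spag1 at -0.31 ± 0.13 and Armc4, which docks outer arms, at -0.93 ± 0.50 (SE; adjusted p = 0.398 and 0.51, edgeR). The 26 intraflagellar transport genes had a median of 0.03, and 0 of them had an unadjusted p under 0.05.

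Tubulins and microtubule-associated proteins, the track of the motors, were higher in HT for 17 of 26 genes, with a median of 0.13. At an unadjusted p under 0.05 there were 9 of them on the higher side and 0 on the lower, where 5.22% and 6.46% of all tested genes lay. Tubb2a, Tubb3 and Tubb4b, beta tubulins, had log2 fold changes of 0.55 ± 0.13, 0.42 ± 0.10 and 0.38 ± 0.10 (SE), with an adjusted p of 0.181, 0.189 and 0.207 (edgeR), so none passed. Tubb3 was at 560 and 561 CPM in the HT male and HT female and 449 and 395 in WT.

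The sexes were compared in the same fit. None of the 63 members differed between females and males at the adjusted threshold in edgeR, DESeq2 or limma-voom, where 0.0595% of tested genes did in edgeR, and 0 had an unadjusted p under 0.05, where 3.82% did. The genotype difference between the sexes was called in 0 members, where 0.0198% of tested genes were called (edgeR). At an unadjusted p under 0.05 there were 0 members, where 3.55% of tested genes lay. No sex has a replicate within a genotype, and that fit held no sex term. Differences between the sexes therefore served as its error, so the 0 calls do not show that the genotype effect is alike in both sexes. Taken from single libraries, 32 of the 63 members lay on the same side of 0 in both sexes, where 8820 of 15117 tested genes did, among them Dnah11, Klc3, Dnah1, Kif5a and Kif13a. Kif1a, Kif21a, Dnah5 and Dnah8 lay on opposite sides.

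**Figure D5:**
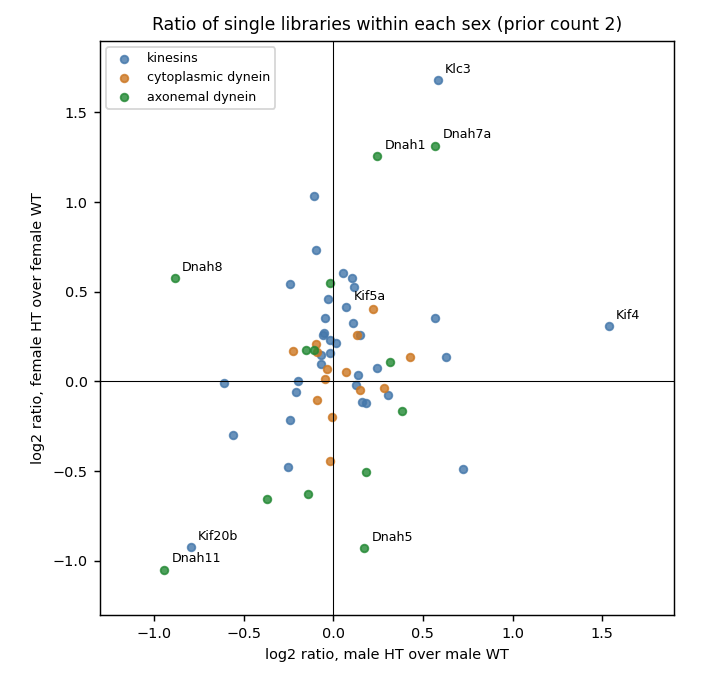
Log2 ratio of heterozygote to wild type in males (x axis) and in females (y axis) for the 63 tested members, each from 1 library over 1 library with a prior count of 2, coloured by class. Dnah11 lies at -0.94 and -1.05; most members lie close to 0 in the males and are spread more widely in the females.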

How the data were processed

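The labels' protocols give stranded mRNA libraries from 4 cerebella, pooled in 1 lane and read from a single end for 100 bases. Raw counts, 1 row per gene symbol, are what the authors deposited. The submitters' processing notes name STAR, featureCounts, FastQC, edgeR and mm9 with neither versions nor settings. Members and lists were chosen with earlier results of these data known.

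Genes were kept with filterByExpr by genotype (15117 of 24015, holding 99.9% of counts) and scaled by TMM. The fit was a robust quasi-likelihood fit in edgeR 4.0.16 (R 4.3.3) on sex plus genotype, which leaves 1 residual degree of freedom. The spread of each gene was moderated by that of the others, with a median of 10.6 prior degrees of freedom. Two-sided p-values were given Benjamini-Hochberg adjustment across every tested gene, with a threshold of 0.05. Sex was read from the same fit, and the genotype effect between sexes from a fit with genotype and the product of both codes. Standard errors are the log2 fold change divided by the square root of F, and intervals are at 95%. On simulated data of this comparison (15106 genes), the share of changed genes recovered was 32.8% at 1.5-fold, 79.1% at 2-fold and 100% at 4-fold. The simulation gave every gene the same biological coefficient of variation, 11.5% as fitted over all genes, and no sex effect. Its shares cover genes of all depths and need not hold for members of low count or larger spread. Transcript lengths (95.5% of tested genes) and overlaps came from GENCODE M21 on GRCm38, a later build than mm9. Named members had an unadjusted p under 0.05, 1 of the 4 highest levels or 1 of the 3 largest changes of their class; others are named to account for all members. Up to 3 genes of smallest p were named per list, with Foxj1, Ttr and genes that share exon bases with a member added after their values were seen. Alternatives were DESeq2 1.42.0, limma-voom (limma 3.58.1), DESeq2's size factors, library totals, no or a stricter filter (1 CPM in 2 libraries), no sex term, coding length and leaving out each library.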

Additional observations from a re-analysis of the deposited data

How the results depend on the processing

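The sex term sets each HT library beside the WT library of its sex and takes up what they share. No other pairing was possible because the labels carry no replicate numbers. Replicate numbers here only name the male (1) and the female (2) of a genotype. The count of members past the adjusted threshold was 0, and it became 1 (Dnah11) with library totals and 1 (Dnah11) with no low-count filter, where 0.0860% and 2.92% of all genes were called; leaving out 1 library gave 0 to 10, with 10 without the male wild type, where 17.5% of all genes were called, and 1 (Dnah11) without the female wild type, where 4.30% were. The 4 members at an unadjusted p under 0.05 became 1 with DESeq2 and 8 with no filter, and 1 to 17 with a library left out, where 4.79%, 11.9% and 2.62% to 28.1% of all tested genes lay. Members with groups that do not overlap were 27, and 39 to 52 with a library left out, which leaves 1 library in a genotype. The share of 44.7% of all tested genes holds for 2 libraries per genotype. No share was computed with a library left out, so the 39 to 52 cannot be set beside all genes. Companion genes past the threshold were 0, and 5 with no filter and 0 to 21 with a library left out. In such fits genotype is the only term, and the genotype with 2 libraries sets the spread. The median of all tested genes lay between -0.00477 and 0.00921 with a library left out. By coding length the median level was 3.52 CPM per kb in kinesins and 66.5 in cytoplasmic dynein, and the order of the classes was kept. With a library left out some named members near 0 changed sign: Dnah7b ran from -0.16 to 0.17, Dync1li2 from -0.10 to 0.062, Dnaic2 from -0.082 to 0.32, Dnaic1 from -0.35 to 0.047 and Kif1a from -0.000457 to 0.22. The cause was not tested. DESeq2 gave no adjusted p for members of low count such as Dnah1 and Klc3. Depth limits members under 100 counts.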
